A study of Mus musculus with 10 samples.

Results

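Penk, the gene of the enkephalin precursor, and 9 genes of the regulators of G protein signalling (RGS) family, Rgs1, Rgs2, Rgs3, Rgs9, Rgs10, Rgs14, Rgs16, Rgs18 and Rgs19, were followed in mouse regulatory T cells (Treg cells) with and without Helios. All 10 genes were found by symbol in the deposited table of 13252 genes. Penk and Rgs9 had been chosen by their normalized counts in these libraries, being nearly absent from Helios- cells, so their difference between the populations is given as a description, with no test. The other 8 are further members of the family, and the table also holds 3 numbered Rgs genes outside the list, Rgs11, Rgs12 and Rgs13. The cells had been sorted from mice as CD4+RFP+GFP+ (Helios+) or CD4+RFP+GFP- (Helios-) Treg cells, with 5 libraries of total RNA in each population. The labels of the samples tie GFP to Helios, a zinc finger transcription factor encoded by Ikzf2. What RFP reports is not stated, nor are strain, age, sex or treatment. The design text of the series speaks instead of wild-type and knockout cells, but here the sample labels define the groups, so a difference is one between sorted populations. Nothing says that the 5 samples of a population came from separate mice, so the p-values rest on a spread between samples that may be technical.

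Penk encodes a precursor protein that proteases cut into the opioid pentapeptides Met- and Leu-enkephalin, which act on opioid receptors coupled to inhibitory G proteins. It is known in Treg cells as a transcript enriched over conventional T cells. RGS proteins speed the hydrolysis of GTP by G alpha subunits and so shorten signals from G protein-coupled receptors, among them those of the chemokine and sphingosine phosphate receptors that guide lymphocytes. Rgs1, Rgs2, Rgs3, Rgs16 and Rgs18 belong to the small R4 subfamily, Rgs9 to the R7 subfamily that works as a complex with G beta 5, Rgs10 and Rgs14 to the R12 subfamily and Rgs19 to the RZ subfamily.

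The libraries held between 4872348 and 6948692 recovered reads. Values are normalized counts, which are read counts divided by 1 factor for each library. Differences were tested with limma on log2(normalized count + 1) across all genes with a mean of at least 10, and a gene was called where the adjusted p was under 0.05. The gene of the sort, Ikzf2 (GRCm38 chromosome 1, 69531214 to 69687245, minus strand), averaged 487 ± 56.5 normalized counts without and 10367 ± 456 with Helios (SD, n = 5 each), which leaves 4.69% of the Helios+ level in the Helios- libraries. Foxp3 (3526 ± 226 and 3570 ± 201) and Cd4 (3334 ± 446 and 3208 ± 276) were present in both populations and not called. Of the same Treg markers Il2ra (3900 ± 269 and 4648 ± 397, limma adjusted p = 0.0249) and Ctla4 (1045 ± 313 and 1533 ± 283, limma adjusted p = 0.0322) were called higher in Helios+ cells, each in 5 of 5 pairs. The call of Il2ra was lost on leaving out, singly, Helios- replicate 4 or replicate 2, 3, 4 or 5 of Helios+ (largest adjusted p = 0.0693), and that of Ctla4 on leaving out Helios- replicate 1, 3, 4 or 5 or replicate 2 or 5 of Helios+ (0.0799). Markers of other cells were present at lower levels. The 8 B cell markers summed to 1584.5 to 2234 normalized counts in Helios- libraries and to 1371 to 1877 in Helios+ libraries, and 10 of 11 macrophage, monocyte or neutrophil markers to 289.0 to 518 and 394 to 811, with Cd14 at 4.19 or less. The 5 markers of CD8 T or NK cells summed to 429 to 545 and 417 to 482 in the same order, and the 5 of dendritic cells to 57.4 to 95.02 and 81.2 to 101. Of 8 platelet markers 4 were in the table, with sums of at most 38.7, and the erythroid markers in the table summed to 2.92 or less. Of these marker lists Csf1r and Zbtb46 were called higher and Ebf1 lower by limma, and the part of such cells in the differences below was not tested. Zbtb46 (6.70 ± 3.94 and 14.9 ± 4.03) passed the mean of at least 10 through its Helios+ mean alone, so its call is not counted as support. Since RNA was taken from bulk samples, fewer cells expressing a gene and less RNA per cell cannot be told apart.

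**Figure D1:**
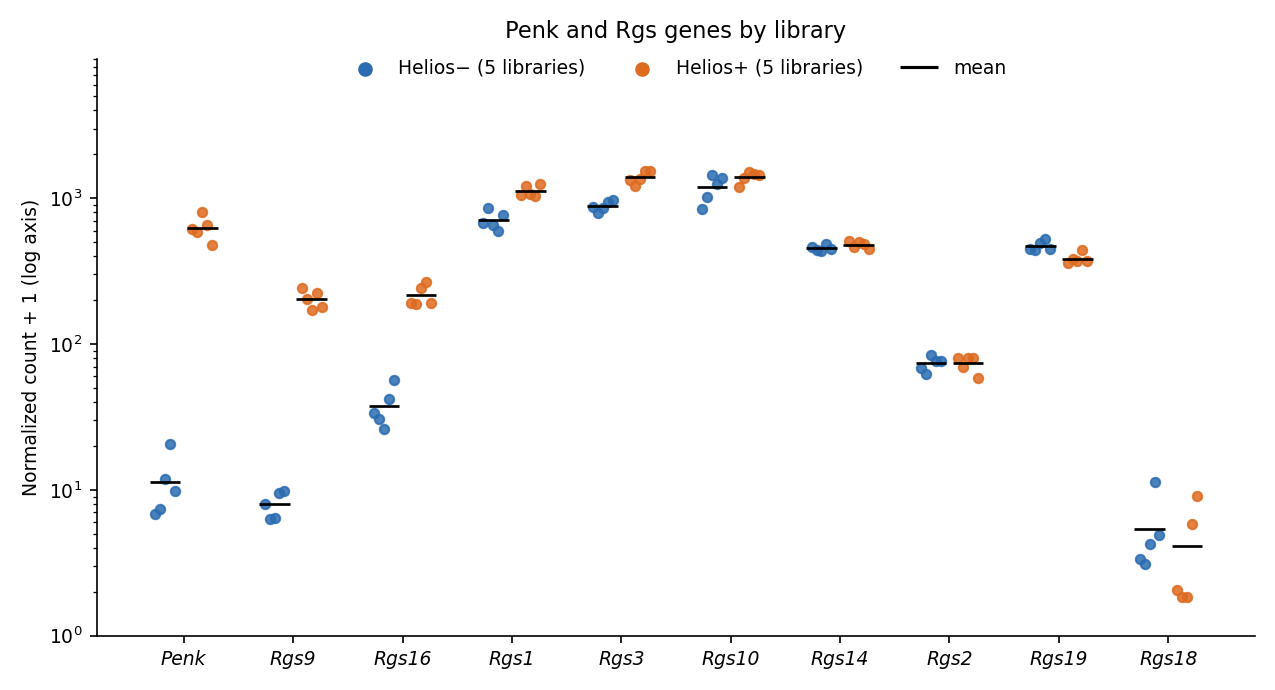
Normalized count + 1 on a log axis for Penk and the 9 Rgs genes, each point being 1 library (5 per population) and each line a group mean. The populations lie far apart for Penk, Rgs9 and Rgs16, less far for Rgs1 and Rgs3, and overlap for Rgs2, Rgs10, Rgs14, Rgs18 and Rgs19.

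Penk (GRCm38 chromosome 4, 4133531 to 4138819, minus strand, protein-coding) was close to absent in Helios- cells and well expressed in Helios+ cells. Helios- replicates 1 to 5 had 5.86, 6.35, 10.9, 19.7 and 8.76 normalized counts, and Helios+ replicates 1 to 5 had 610, 581, 801, 656 and 474. The lowest Helios+ library was 24.1-fold above the highest Helios- library, which was replicate 4. The Helios- mean was 1.65% of the Helios+ mean (10.3 ± 5.61 against 624 ± 119, SD, n = 5). Behind these means stood 53 reads in the 5 Helios- libraries together and 3298 in the 5 Helios+ libraries. On the log2(normalized count + 1) scale, Helios+ exceeded Helios- by 5.89 ± 0.26 (SE). Between libraries of the same replicate number, called pairs here, it ranged from 4.99 in pair 4 to 6.48 in pair 1. The coefficient of variation was 54.4% in Helios- and 19.1% in Helios+ cells. Helios- replicate 4 had the most Penk and replicate 5 the most Ikzf2: Ikzf2 had 492 normalized counts in replicate 4 and 572 in replicate 5. Of the exon bases of Penk, 14.3% lie opposite exons of a gene on the other strand, and whether the counting used strand is not given in the sources used here.

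Rgs9 (chromosome 11, 109225355 to 109298129, minus strand), the RGS protein best known from photoreceptors and the striatum, followed the same pattern at a lower level. Its Helios- replicates 1 to 5 had 7.03, 5.29, 5.46, 8.55 and 8.76 normalized counts, and its Helios+ replicates 243, 202, 169, 222 and 177. The lowest Helios+ library was 19.3-fold above the highest Helios- library. The means were 7.02 ± 1.64 and 203 ± 30.8 (SD, n = 5), so Helios- cells held 3.46% of the Helios+ level, from 35 reads in all against 1054. The log2 change was 4.68 ± 0.18 (SE), between 4.19 in pair 5 and 5.01 in pair 2. Penk and Rgs9 did not order the Helios+ libraries alike: Penk was highest in replicate 3, where Rgs9 was lowest. Both genes had a mean of at least 10 over the 10 libraries, the minimum for testing, and Rgs9 passed it through the Helios+ libraries alone.

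Rgs16 (chromosome 1, 153740349 to 153745468, plus strand), an R4 protein that T cells induce on activation and that limits chemokine signalling, had the largest change among the 7 other Rgs genes tested. Helios- replicates 1 to 5 had 32.8, 29.6, 25.1, 41.0 and 55.5 normalized counts, and Helios+ replicates had 190, 187, 242, 264 and 190.1. The populations did not overlap. The means were 36.8 ± 11.9 and 214 ± 36.1 (SD, n = 5), a 5.83-fold difference, or 2.55 ± 0.19 (SE) as a log2 change (limma adjusted p = 8.67e-08), higher in 5 of 5 pairs. The pair with replicate number 5 had the smallest change, 1.76, and pair 3 the largest, 3.22. For Rgs16 10.1% of exon bases lie opposite another gene. The plot of changes within pairs shows Penk, Rgs9 and Rgs16 as the members with a wide spread between pairs, while the 5 pairs of Rgs3 lay close together.

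**Figure D2:**
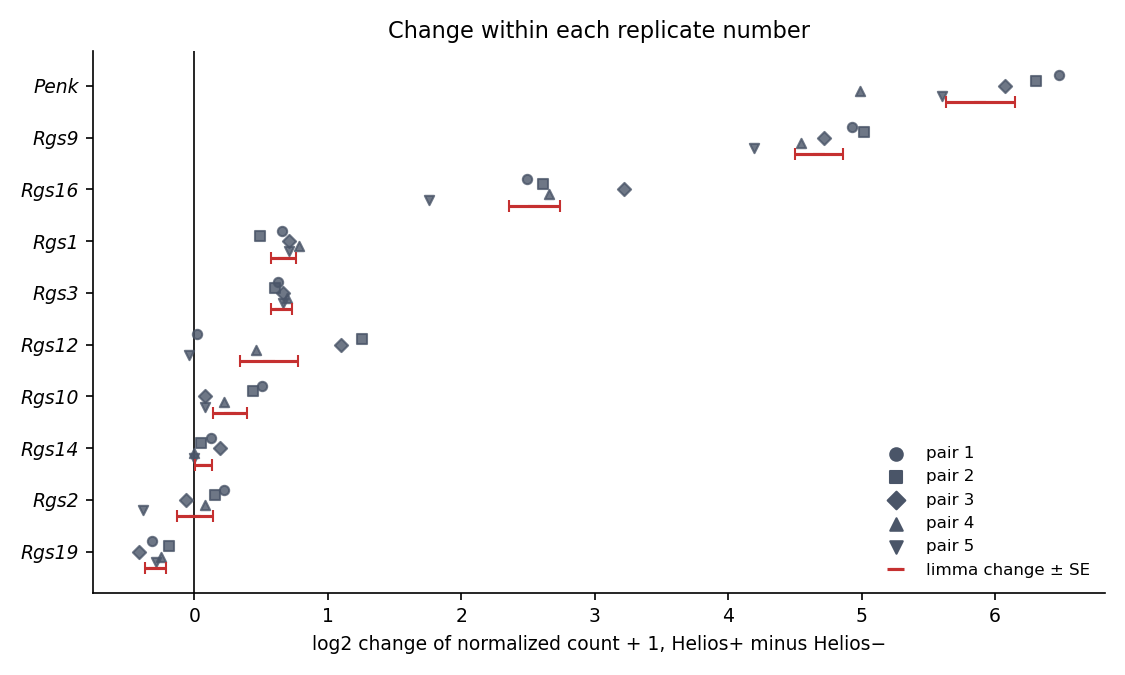
Log2 change of the normalized count + 1 from Helios- to Helios+ within each of the 5 replicate numbers (grey symbols) and the limma change with its SE (red bar) for 9 members and Rgs12. All 5 pairs lie above 0 for Penk, Rgs9, Rgs16, Rgs1, Rgs3 and Rgs10 and all 5 below 0 for Rgs19.

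Windows upstream of the start were looked up in RefSeq's table for GRCm38.p6, which held 9 windows for 6 of the 10 genes (Rgs2, Rgs3, Rgs9, Rgs10, Rgs16 and Rgs19). The 250 bases before the start of Rgs9 and Rgs16, the RGS genes with the largest differences, are shown 5′ to 3′ on the gene's strand, with matches to the searched motifs in capitals. The first lies at chr11:109298182-109298431 (minus strand) and the second at chr1:153740103-153740352 (plus strand).
Rgs9: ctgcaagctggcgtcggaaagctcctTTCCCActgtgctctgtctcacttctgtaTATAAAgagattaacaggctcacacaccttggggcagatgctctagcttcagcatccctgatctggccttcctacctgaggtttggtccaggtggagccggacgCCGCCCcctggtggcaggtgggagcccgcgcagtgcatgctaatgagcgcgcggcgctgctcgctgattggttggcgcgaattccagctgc
Rgs16: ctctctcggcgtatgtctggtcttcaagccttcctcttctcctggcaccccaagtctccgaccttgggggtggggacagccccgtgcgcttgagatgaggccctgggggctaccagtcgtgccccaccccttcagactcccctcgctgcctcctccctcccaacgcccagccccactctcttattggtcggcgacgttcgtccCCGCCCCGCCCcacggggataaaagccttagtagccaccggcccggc
In the Rgs9 window the capitals mark letter matches, in order, to the Ikaros core on the opposite strand, the TATA box and the GC box on the opposite strand. Their first bases lie at −224, −195 and −91 from the start. Whether any match acts as such an element was not tested. In the Rgs16 window they mark 2 overlapping GC boxes on the opposite strand. Both strands were searched. The Ikaros core, TGGGAA, was in 3 of the 9 windows (Rgs3, Rgs9 and Rgs19) and in 21.6% of the 32851 windows of this length in the table. The TATA box letters, TATAAA, were in 3 windows, 2 of them of Rgs3 (at −100 and −177) and 1 of Rgs9, against 12.4% in the table. The GC box, GGGCGG, was in 7, against 32.7%. Of these 7, 2 are overlapping windows of Rgs19 that share a match, so the windows are not separate sequences. None of the 9 windows held the cAMP response element TGACGTCA (1.55% of the table), the enkephalin element TGCGTCA (1.75%), the AP-1 motif TGANTCA (6.75%), the forkhead motif TGTTTAC (3.17%) or the Runx motif TGTGGTT (4.40%).

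Rgs1 (chromosome 1, 144242296 to 144249242, minus strand), a lymphocyte RGS protein that restrains migration towards chemokines, was higher in Helios+ cells by a smaller and even step. Helios- replicates 1 to 5 had 671, 863, 651, 599 and 763 normalized counts, and Helios+ replicates 1057, 1213, 1065, 1036 and 1249. The populations did not overlap, although the highest Helios- library, replicate 2, was within 1.20-fold of the lowest Helios+ library. The log2 change was 0.67 ± 0.09 (SE; limma adjusted p = 6.68e-05), between 0.49 and 0.79 in the pairs. B cells also express Rgs1, and the sum of the 8 B cell markers was lower in the Helios+ library of 5 of 5 pairs. The part of B cells in the Rgs1 difference was not tested.

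Rgs3 (chromosome 4, 62559847 to 62704001, plus strand), an R4 member with many isoforms, had 863, 793, 851, 947 and 973 normalized counts in Helios- replicates 1 to 5 and 1337, 1209, 1349, 1534 and 1543 in Helios+ replicates. The populations did not overlap, and both were highest in replicates 4 and 5. The log2 change was 0.65 ± 0.08 (SE; limma adjusted p = 1.92e-05), and its range over the pairs, 0.61 to 0.69, was the narrowest of the 10 members. The annotation gives 17 transcripts for Rgs3, which gene-level counts cannot separate.

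Rgs19 (chromosome 2, 181688419 to 181693977, minus strand), an RZ protein also known as GAIP that binds G alpha i, was the 1 member called lower in Helios+ cells. Helios- replicates 1 to 5 had 445, 437, 490.4, 526 and 449.6 normalized counts and Helios+ replicates 357, 383, 368, 441 and 367. Only Helios+ replicate 4 reached the range of the Helios- libraries. The log2 change was −0.29 ± 0.08 (SE; limma adjusted p = 0.0126), lower in 5 of 5 pairs. Oprl1, the receptor of the opioid-like peptide nociceptin, starts 21.0 kb from Rgs19 on the other strand and had 1.83 ± 2.65 and 0.403 ± 0.562 normalized counts.

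Rgs10 (chromosome 7, 128373621 to 128418758, minus strand), a small R12 protein that consists of little more than the RGS domain, was the most abundant of the 10 genes per kilobase, and whether it was called depended on the pairing of samples. Helios- replicates 1 to 5 had 846, 1017, 1440, 1258 and 1370 normalized counts and Helios+ replicates 1202, 1383, 1520, 1471 and 1448. The populations overlapped, with Helios- replicates 1 and 2 the lowest 2 libraries. The log2 change was 0.27 ± 0.13 (SE) and was not called (limma adjusted p = 0.152). Helios+ was higher in 5 of 5 pairs, by 0.08 to 0.51, and limma with the replicate block called the gene (adjusted p = 0.00137).

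Rgs14 and Rgs2 were not called. Rgs14 (chromosome 13, 55369732 to 55384687, plus strand), a scaffold with an RGS and Ras-binding domains, ranged from 436 to 483 normalized counts in Helios- libraries and from 449.7 to 506 in Helios+ libraries, with 0.07 ± 0.06 (SE) as a log2 change (limma adjusted p = 0.476). It was the steadiest member, with a coefficient of variation of 4.16% in Helios- and 5.08% in Helios+ cells. Rgs2 (chromosome 1, 143999338 to 144004161, minus strand), which acts mainly on G alpha q, ranged from 61.4 to 83.0 normalized counts in Helios- libraries and from 58.0 to 79.7 in Helios+ libraries. Its log2 change was 0.00 ± 0.13 (SE; limma adjusted p = 0.987), with 3 pairs higher and 2 lower.

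Rgs18 (chromosome 1, 144752683 to 144775435, minus strand), known from platelets and myeloid cells, was at the limit of detection. Its 5 Helios- libraries held 2.34, 2.12, 3.28, 10.3 and 3.89 normalized counts and the Helios+ libraries 1.05, 0.836, 0.855, 4.86 and 8.11, from 23 and 15 reads in all. With a mean of 3.76 it was below the minimum for testing, and a difference was not detectable at this depth. The platelet markers summed to 11.97 in Helios- replicate 4, where Rgs18 was highest, and to 38.7 in replicate 1.

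Of the 8 Rgs genes other than Rgs9, 7 were tested, and limma called 3 higher (Rgs1, Rgs3 and Rgs16) and 1 lower (Rgs19), where 24.8% of all 10718 genes tested were called, 14.1% higher and 10.7% lower. edgeR and DESeq2 called 24.6% and 26.6% of all genes. The median log2 change of the 7 was 0.27, beside −0.02 over all genes tested. The populations did not overlap for 3 of the 7, all 3 higher, against 19.5% of all genes, 11.2% higher and 8.37% lower. With the replicate block 5 of the 7 were called, where 37.3% of all genes were, 18.9% higher and 18.5% lower. The 3 numbered Rgs genes outside the list were low. Rgs12 averaged 26.5 ± 7.41 normalized counts without and 38.7 ± 6.35 with Helios, or 0.56 ± 0.21 (SE) as a log2 change (limma adjusted p = 0.0711, and 0.0486 with the replicate block). Rgs11 had 7.94 ± 4.25 and 4.71 ± 4.52, and Rgs13, a germinal centre B cell gene, 2.81 ± 0.53 and 3.04 ± 2.78 normalized counts.

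**Figure D3:**
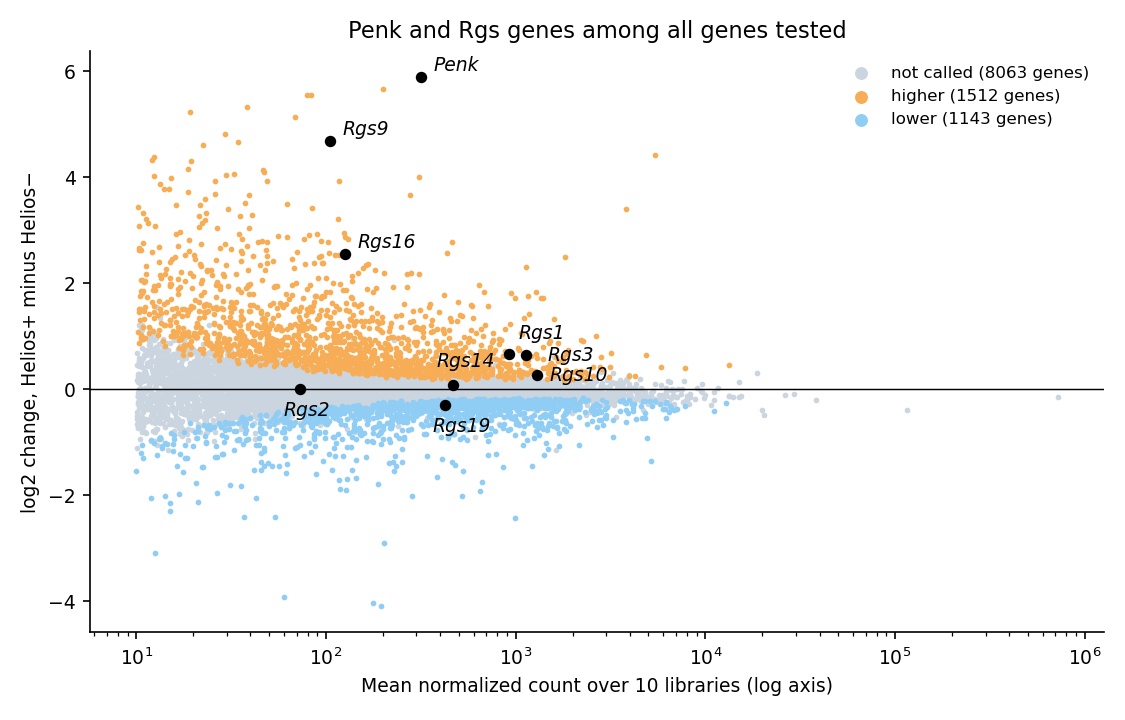
Log2 change (Helios+ minus Helios-) on the vertical axis and mean normalized count of the 10 libraries on a horizontal log axis for 10718 genes, with 1512 genes called higher, 1143 called lower and 8063 not called. Black points are the 9 members above the minimum for testing: Penk, Rgs9 and Rgs16 lie well above 0, and the other 6 lie between −0.29 and 0.67.

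Of the numbered Rgs genes in the deposited table, Rgs2, Rgs13, Rgs1 and Rgs18 lie in this order on the minus strand of chromosome 1. They are 134.5 kb, 64.9 kb and 503 kb apart, and other genes between them were not looked up. Within this stretch Rgs1 rose, Rgs2 had a log2 change of 0.00, and Rgs13 and Rgs18 stayed under 11 normalized counts in each library. Rgs16 lies 8965 kb further on, on the other strand.

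Per kilobase of exon in GENCODE's basic transcripts, the order of levels differed between the populations. In Helios- cells Rgs10 led with 1040 ± 218 normalized counts per kb (SD, n = 5), then came Rgs19 (219.8 ± 17.6), Rgs14 (193 ± 8.04) and Rgs1 (185 ± 27.1), neighbours whose libraries overlapped. Rgs3 followed at 113 ± 9.43, then Rgs2 (22.3 ± 2.54), Rgs16 (15.7 ± 5.11), Penk (7.12 ± 3.87), Rgs18 (2.16 ± 1.66) and Rgs9 (1.15 ± 0.27), each overlapping the next. In Helios+ cells Rgs10 still led with 1232 ± 108 per kb, and Penk was the next with 431 ± 82.2, above Rgs1 (293 ± 25.8). Rgs14 (203 ± 10.3), Rgs19 (179 ± 15.7) and Rgs3 (178 ± 18.2) overlapped, followed by Rgs16 (91.7 ± 15.4), Rgs9 (33.4 ± 5.06), Rgs2 (22.5 ± 2.98) and Rgs18 (1.55 ± 1.61), which did not overlap their neighbours.

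The genes most like each member were found by the root mean square difference between log2 profiles over 10 libraries, each centred on its mean. The comparison covered 8027 genes with a mean of at least 50 and left out the members and predicted genes (Gm or Rik symbols). For Penk the nearest of these were Ccdc46 (0.58), Dnahc7a (0.58), Bicd1 (0.69) and Itgb8 (0.83). Each averaged 7.40 normalized counts or less in Helios- cells. For Rgs9 the nearest was Ikzf2 itself (0.27), followed by Dnahc7a (0.46), the inhibitory receptor gene Tigit (0.54) and Ccdc46 (0.57), while Penk and Rgs9 differed from each other by 0.74. Rgs16 lay nearest to Bhlhe40 (0.27), an activation-induced transcription factor gene with 53.1 ± 11.5 and 260.4 ± 36.2 normalized counts, and to Synpo (0.27). Rgs1 lay nearest to Zbtb38 (0.11) and Prkca (0.12), and Rgs3 to Slc4a7 (0.09) and Alms1 (0.09). Rgs10 lay nearest to Calm3 (0.05) and Pigs (0.06), Rgs14 to Pikfyve (0.05) and Aftph (0.05), Rgs19 to Specc1l (0.06) and Zfp238 (0.07), and Rgs2 to Tbc1d13 (0.09) and Cd74 (0.10). These profiles share the 10 libraries and the contrast on which Penk and Rgs9 were picked, so the likeness is a description.

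Partners of the R7 subfamily were few. Gnb5, the G beta 5 subunit without which R7 proteins are unstable, had 2.34, 22.2, 7.65, 17.1 and 6.81 normalized counts in Helios- replicates 1 to 5 and 17.8, 25.9, 25.6, 27.2 and 31.3 in Helios+ replicates. The populations overlapped, since Helios- replicate 2 exceeded Helios+ replicate 1. The log2 change was 1.40 ± 0.43 (SE; limma adjusted p = 0.0259), and the call was lost on leaving out, singly, Helios+ replicate 2, 3, 4 or 5 or replicate 5 of Helios- (largest adjusted p = 0.0638). The anchor gene Rgs9bp had 6.36 ± 2.75 and 4.63 ± 2.56 normalized counts, below the minimum for testing. Gpr158 and Rgs7bp were not found by symbol in the deposited table.

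Among the G alpha subunits, on which RGS proteins act, 4 of 9 tested were called higher and 0 lower, beside 14.1% and 10.7% of all genes. At a limma p under 0.05 before adjustment, and with edgeR or DESeq2 after adjustment, 4 were also higher and 0 lower. The median log2 change was 0.14. Gnaq, the G alpha q subunit that activates phospholipase C beta, rose from 126 ± 17.6 normalized counts to 267 ± 18.3, or 1.08 ± 0.10 (SE) as a log2 change (limma adjusted p = 9.93e-07). Gnas, the stimulatory subunit of adenylyl cyclase, rose by 0.55 ± 0.09 (another gene overlaps 21.97% of its exon bases), Gna12 by 0.88 ± 0.16 and the haematopoietic Gq-class subunit Gna15 by 0.71 ± 0.16. The inhibitory subunits Gnai2 and Gnai3, among the main substrates of RGS proteins, were not called. Gnai2 had 3821 ± 641 and 3814 ± 332 normalized counts (limma adjusted p = 0.961), and Gnai3 had 852 ± 150.1 and 785 ± 86.8 (limma adjusted p = 0.518). Gna14, of the Gq class, was too low for the test at 1.17 or less in each Helios- library and between 6.29 and 23.4 in Helios+ libraries. Only limma without the filter called it (adjusted p = 1.03e-05, where 22.5% of all genes were called, 13.6% higher and 8.93% lower). Since Gna14 was nearly absent from Helios- libraries, that call is not counted as support.

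**Figure D4:**
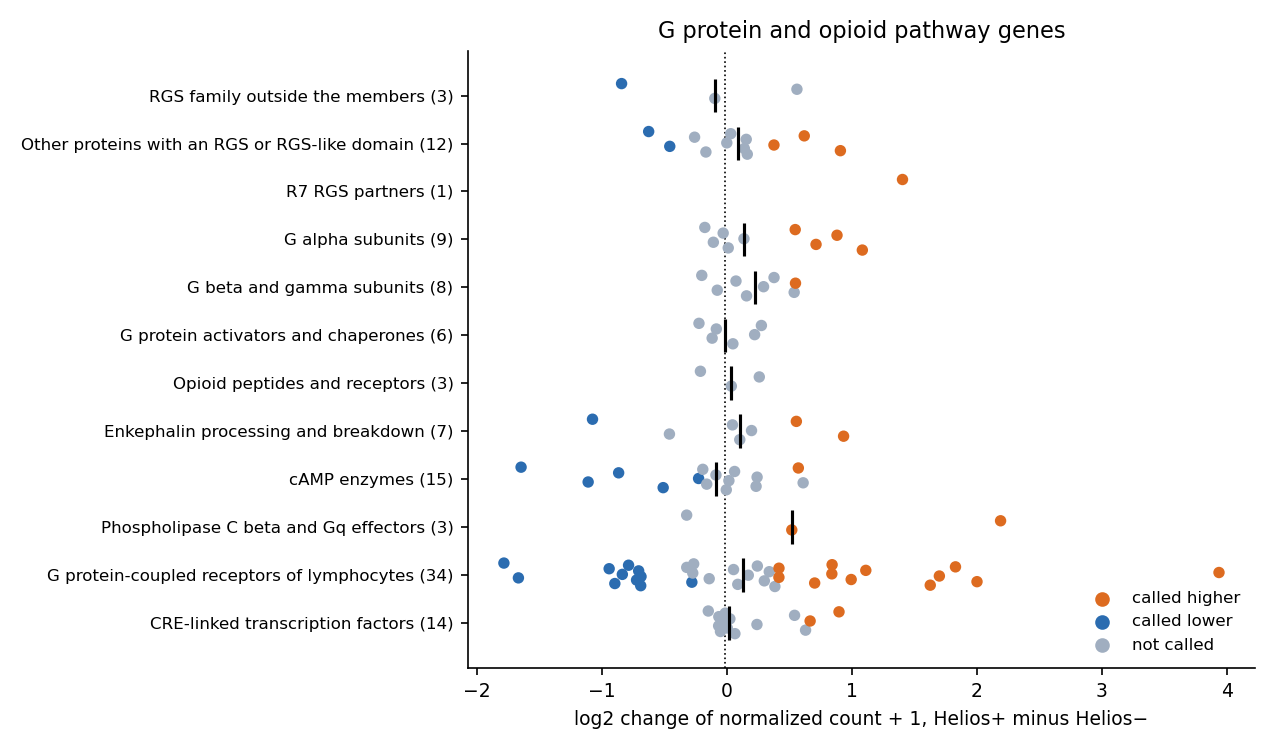
Log2 change of the normalized count + 1 from Helios- to Helios+ of the tested genes of each list, with the number tested in brackets, a black line at the median of lists with over 2 genes and a dotted line at the median of all genes tested. Orange points were called higher, blue points lower and grey points not called by limma. The highest point is Ccr8 at 3.94 and the lowest Vipr1 at −1.79.

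Downstream of Gq, 2 of 3 phospholipase C beta genes were called higher and 0 lower, where 14.1% and 10.7% of all genes were, as by edgeR and DESeq2. At an unadjusted limma p under 0.05 the counts were 2 and 1. Plcb4 had 114.8, 63.5, 51.3, 75.2 and 65.2 normalized counts in Helios- and 352, 319, 284, 339 and 355 in Helios+ replicates 1 to 5, or 2.19 ± 0.17 (SE) as a log2 change (limma adjusted p = 1.52e-07). The populations stood well apart, with Helios- replicate 1 the highest of its group. Plcb3 rose by 0.52 ± 0.10, and Plcb2 was not called at 816 ± 165 and 647 ± 90.4 (limma adjusted p = 0.0814) but was called lower with the replicate block (adjusted p = 8.08e-05). Of 8 G beta and gamma genes, 1, Gng2, was higher (by 0.55 ± 0.10; another gene overlaps 20.4% of its exon bases) and 0 lower by limma, as by DESeq2, while edgeR called 2 higher and 0 lower. That is 1 of 8 where 14.1% of all genes were called higher. With unadjusted limma p under 0.05, 4 were higher and 0 lower, and with the replicate block 3 were higher, Gnb4 and Gng10 being added, where 18.9% of all genes were. Of 6 activators and chaperones of G proteins 0 were called by limma, edgeR or DESeq2, and 0 had a limma p under 0.05 before adjustment, where limma called 24.8% of all genes. The block left 0 called, with 1 at an unadjusted p under 0.05.

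A further list held enzymes that make, break or respond to cyclic AMP, the second messenger that inhibitory G proteins lower. Of 15 tested, 5 were lower and 1 higher, beside 10.7% and 14.1% of all genes, with a median log2 change of −0.09. With the replicate block 6 were lower and 3 higher, beside 18.5% and 18.9%. Pde3b, a phosphodiesterase, fell from 586 ± 33.2 normalized counts to 187 ± 23.3, or −1.65 ± 0.09 (SE) as a log2 change (limma adjusted p = 2.85e-09). The adenylyl cyclase genes Adcy9 and Adcy6 changed by −1.11 ± 0.14 and −0.87 ± 0.13, and Pde4b by −0.51 ± 0.07. Pde4d changed by −0.23 ± 0.08, and its call (limma adjusted p = 0.049) was lost on leaving out, singly, Helios- replicate 2, 3, 4 or 5 or replicate 1, 2 or 4 of Helios+ (largest adjusted p = 0.121). The 1 higher was Pde7a, by 0.57 ± 0.09. Adcy7, a cyclase of blood cells, was not called at 1261 ± 286 and 1115 ± 175 (limma adjusted p = 0.467, and 0.0145 with the replicate block).

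Opioid peptide and receptor genes besides Penk were near the limit of detection. In that list 0 of 3 genes tested were called by limma, edgeR or DESeq2, where limma called 24.8% of all genes. A limma p under 0.05 before adjustment was also found for 0 of the 3, too few genes to set against that share. The mu receptor gene Oprm1 had 9.58 ± 5.22 normalized counts without and 10.96 ± 3.45 with Helios (limma adjusted p = 0.661). The delta receptor gene Oprd1, which encodes the receptor that enkephalins prefer, had 1.022 ± 1.038 and 0.939 ± 1.06, and Pomc 3.35 ± 1.58 and 2.78 ± 2.30, so differences were not detectable at this depth. Of the 9 genes in this list 6 were found by symbol in the deposited table, and Pdyn, Pnoc and Oprk1 were not analysed here. Ogfr, which binds an enkephalin but is not a G protein-coupled receptor, was not called (limma adjusted p = 0.756).

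Of the genes for cutting or degrading enkephalins, 7 were tested, and 2 were called higher and 1 lower, with a median of 0.10, beside 14.1% and 10.7% of all genes. The neuroendocrine convertase gene Pcsk1 had 1.09 ± 1.40 and 1.35 ± 0.53 normalized counts, and Cpe, the carboxypeptidase that trims the peptides in neurons, 5.52 ± 3.08 and 9.15 ± 2.34, both below the minimum for testing. Of the 13 genes in this list 10 were found by symbol in the deposited table, and Pcsk2 was not analysed here. Cpd, a related carboxypeptidase of the secretory route, rose from 124 ± 27.2 to 237 ± 35.9, or 0.93 ± 0.14 (SE) as a log2 change (limma adjusted p = 0.000137). Scg5, the chaperone of the convertase PCSK2, fell from 26.8 ± 2.01 to 13.0 ± 5.22 (limma adjusted p = 0.00917). Rnpep, aminopeptidase B, was higher by 0.55 ± 0.17, and its call (limma adjusted p = 0.0253) was lost on leaving out, singly, Helios- replicate 2, 4 or 5 or replicate 1, 3 or 5 of Helios+ (largest adjusted p = 0.0733). Furin had 399 ± 18.9 and 414 ± 50.2 and was not called (limma adjusted p = 0.763).

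Other proteins with an RGS or RGS-like domain were divided, with 3 of 12 higher and 2 lower and a median of 0.08, beside 14.1% and 10.7% of all genes. With the replicate block 3 were higher and 4 lower, beside 18.9% and 18.5%. The sorting nexins Snx13 and Snx14 rose by 0.91 ± 0.10 and 0.38 ± 0.07, and Arhgef12, an exchange factor for small GTPases downstream of G alpha 12 and 13, by 0.62 ± 0.08. Its relative Arhgef11 changed by −0.63 ± 0.07, and Grk6, a kinase that switches off chemokine receptors, by −0.46 ± 0.08, from 2108 ± 148 to 1536 ± 142 normalized counts. The list of RGS family genes outside the 10 members had 3 tested genes, Rgs12, Axin1 and Axin2, with 0 called higher and 1 lower, as by edgeR and DESeq2. At a limma p under 0.05 before adjustment 1 of them was higher and 1 lower. Axin2, a Wnt target gene with an RGS domain, fell from 609 ± 82.3 to 337 ± 21.4 (log2 change −0.84 ± 0.09, SE; limma adjusted p = 3.85e-06), while Axin1 was not called (limma adjusted p = 0.352).

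Receptors of the kind whose signals RGS proteins limit went both ways. Of 34 tested G protein-coupled receptors of lymphocytes, 12 were higher and 11 lower, with a median of 0.13, beside 14.1% and 10.7% of all genes. The calls of S1pr4, S1pr2 and Gpr83, among others, depended on single libraries. Gpr83 lost its call without Helios- replicate 3 (adjusted p = 0.0701), and S1pr2 without replicate 4 or 5 of Helios+ (at most 0.069). S1pr4 lost it without Helios- replicate 3, 4 or 5 or replicate 2 or 4 of Helios+ (at most 0.0736). The 4 receptors with the smallest p were higher. They were Ptger2, a prostaglandin E2 receptor (43.5 ± 7.19 against 175 ± 4.76 normalized counts), Ccr8 (5.38 ± 2.18 against 92.3 ± 15.1), Cxcr3 (43.6 ± 8.14 against 156 ± 18.7) and the adenosine receptor Adora2a (61.9 ± 8.92 against 193 ± 28.8). Ccr8 and Ccr3 passed the minimum for testing through their Helios+ means alone. Both are among the 12 called higher, but their calls are not counted as support. Among the 11 called lower were S1pr1 (783 in Helios- against 482 in Helios+ normalized counts per kb of exon) and Ccr7 (422 against 253). Gpr183 (241 against 148) and Vipr1 (59.5 against 17.2) were also lower. The calls of S1pr1, Ccr7, Gpr183 and Vipr1 held when any 1 library was left out. Of the transcription factors linked to cyclic AMP elements or AP-1, 2 of 14 were higher, Junb by 0.67 ± 0.11 and Creb3l2 by 0.90 ± 0.14, and 0 lower. The share higher was near the 14.1% of all genes. The counts were the same by edgeR, by DESeq2 and at a limma p under 0.05 before adjustment. Creb1 had 1407 ± 80.9 and 1346 ± 102 normalized counts (limma adjusted p = 0.543).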

How the data were processed

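RNA-seq of the 10 libraries used a stranded total RNA kit, per the labels' protocols. The table deposited by the authors gives normalized counts, a signal that, from its values, is whole read counts divided by 1 factor for each library. Per the submitters' processing notes HISAT2 2.0.4, HTSeq and DESeq2 were used, without their settings. Whole reads were recovered for 100% of values within 0.001. limma 3.58.1 (R 4.3.3, trend and robust) compared log2(normalized count + 1) over 10718 genes with a mean of at least 10, leaving out 2534, with Benjamini-Hochberg adjustment at 0.05. Its fold changes understate those of low genes. edgeR 4.0.16 and DESeq2 1.42.0 on recovered reads, other pseudocounts, filters and scalings, a replicate block and leaving out each library were alternatives. The script was tested on simulated data. Same-numbered libraries of both populations deviated from their group means together (r = 0.48, 0.19, 0.39, 0.16 and 0.15, all over 0.1), and the labels number them alike, so blocked values are given where they change a call or count. Positions and exon lengths are those of GENCODE for GRCm38. The members and lists, with markers of B, myeloid, dendritic, CD8 T or NK, platelet and erythroid cells, were chosen with earlier results of these data known. Named from each list were the 4 genes of smallest p and all called genes where 5 or fewer were, and other genes were added for their role or level after their values were seen. Some results are not reported here.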

Additional observations from a re-analysis of the deposited data

Results flagged for a closer look

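Rgs18 had 10.3 normalized counts in Helios- replicate 4, from 12 reads, while the other 4 Helios- libraries lay between 2.12 and 3.89. Its gap to the next library was 0.78 of the range of the group, above Dixon's critical value of 0.71 for 5 samples. It was the 1 such value among the 20 sets of 5 libraries checked (10 genes in 2 populations), and chance alone gives about 1 in 20.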

How the results depend on the processing

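Under 19 alternatives Penk's log2 change lay between 5.41 and 6.14, and Rgs1, Rgs3, Rgs16 and Rgs19 kept their direction and call, Rgs19 with adjusted p up to 0.0409. Rgs9, at 4.68, came to 4.11 with a pseudocount of 5 and 4.39 with quantile normalization. The replicate block raised the genes called lower from 1143 to 1979 and those called higher from 1512 to 2021, and Rgs10 was called with it (log2 change 0.27, adjusted p = 0.00137). It changed no other call among the 7 Rgs members tested. Rgs2 changed sign with quantile normalization (−0.10) and when single libraries were left out (−0.054 to 0.083), with no call. Leaving out 1 library gave 1314 to 1632 genes higher and 929 to 1293 lower, with 3 Rgs members higher and 1 lower each time. Of 48 called list genes, 41 were called in each of these fits. The cause of these shifts was not tested. At 53 and 35 reads, the Helios- levels of Penk and Rgs9 limit the precision of their changes, and Rgs18, Oprd1, Pomc and Pcsk1 were too low for a comparison.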
